A study of Mus musculus with 4 samples.

Results

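Chromatin modifiers and remodelers were followed in neurospheres, the free-floating balls that neural stem cells and their progeny form in culture, taken from the ventral telencephalon, the lower forebrain, of E12.5 mouse embryos. The genes were those whose symbol names a histone deacetylase (Hdac), sirtuin (Sirt), lysine demethylase (Kdm, without Kdm5c, Kdm5d and Kdm6a), lysine methyltransferase (Kmt, Setd), remodeler subunit (Smarc, Chd, Arid) or chromobox protein (Cbx), together with Ezh1, Ezh2, Eed, Suz12, Jarid2, Rbbp7, Sin3a, Sin3b, Ring1, Rnf2, Bmi1, Phc1, Dnmt3a and Dnmt3b. They came to 102 genes of 18193 with a probe set of their own, and to 252 probe sets, 153 on the Affymetrix array MOE430A and 99 on MOE430B. RNA came from 1 sample labelled E2f4 knockout and 1 wild-type sample, and each RNA was run on both arrays. The allele, the strain and the number of embryos are not stated in these sources. With 1 sample per genotype there was no test across samples and no p-value, so every difference described is between 2 RNA samples and not yet between genotypes.

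Chromatin regulators act on histones and nucleosomes in a few ways. Polycomb repressive complex 2 (PRC2) methylates histone H3 at silent developmental genes, and Polycomb repressive complex 1 (PRC1) attaches ubiquitin to a core histone there, while SWI/SNF (also called BAF), ISWI and CHD complexes slide or evict nucleosomes with energy from ATP. In the embryonic brain, neural progenitors exchange some SWI/SNF subunits for others as they become neurons, and PRC2 helps to time the change from making neurons to making glia. E2F4 is a transcription factor that joins pocket proteins to hold cell-cycle genes silent, and such repression works in part through Sin3 and histone deacetylases.

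The values were MAS5 signals, the brightness of a probe set on a linear scale. E2f4 itself had a signal of 1535 in the knockout sample and 1812 in the wild type, and since the part of the gene covered by its probe set is not stated, it does not check the label. Of markers of neural progenitors 6 of 7 were measured, and 5 of these 6 were higher in the knockout sample (median log2 ratio 0.15). Of all measured genes 49.8% were higher. The 5 were Pax6 at 0.44, Fabp7 at 0.26, Msi1 at 0.21, Vim at 0.09 and Sox2 at 0.04, and Nes was at -0.04. The summed signal of these markers, over the brightest probe set of each, was 107638 in the knockout sample and 97963 in the wild type. Neuron markers were measured for 7 of 7, of which 6 were lower in the knockout sample, and their summed signal was 95968 in the knockout sample and 109304 in the wild type. Of 6 markers of the ventral telencephalon 5 were measured and all 5 were lower, with sums of 13453 in the knockout sample and 18259 in the wild type. Red-cell genes were bright, and all 3 that were measured were lower in the knockout sample, at a median of -0.51. The summed signal of the red-cell list was 93174 in the knockout sample and 124944 in the wild type, most of it the embryonic globin Hbb-y with 69939 in the knockout sample and 89828 in the wild type. Both measured oligodendrocyte markers were lower, at a median of -0.48, and of 2 measured astrocyte markers 1 was higher and 1 lower. Of 4 microglia markers only Csf1r was measured, of 4 endothelial markers only Kdr, and of 5 markers of mesenchyme and meninges only 1. The part of these shifts in the ratios of the chromatin genes was not tested. Both genotypes of an array design were hybridised on the same day. As a measure of RNA integrity, the Gapdh signal at the 3' end over that at the 5' end lay between 0.799 and 0.948 over the 4 arrays.

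The promoters of the genes were searched for letters that E2F proteins are known to bind, since these bear on what E2F4 could act on directly. The motifs were TTTGGCGC, TTTCCCGC, TTTGCCGC and TTTCGCGC on both strands, in the 300 bases from 250 before to 50 after each RefSeq gene start (GRCm38.p6). Of 110 such promoters, which covered 82 of the 102 genes, 7 held a motif (6.36%), against 744 of all 32851 promoters in the table (2.26%). The genes were Arid1a, Cbx3, Ezh2, Kmt5c, Sirt4, Smarcd1 and Suz12. The motif TTTGAA, the cell-cycle homology region bound by the DREAM complex to which E2F4 belongs, was in 13 of the 110 (11.8%), against 17.9% of all promoters. A match is a description of these letters and is no measured binding site. The promoters printed are those of the Polycomb and SWI/SNF subunits among the 7, with the motif in capitals.
Ezh2, chr6:47594981-47595280, minus strand, motif from 3 bases after the start: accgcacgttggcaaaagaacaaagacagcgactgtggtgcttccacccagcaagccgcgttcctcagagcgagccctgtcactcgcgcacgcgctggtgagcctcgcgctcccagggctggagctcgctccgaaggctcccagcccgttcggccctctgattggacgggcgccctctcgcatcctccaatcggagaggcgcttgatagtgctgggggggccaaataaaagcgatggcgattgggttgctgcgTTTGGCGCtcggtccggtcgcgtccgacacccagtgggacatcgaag
Suz12, chr11:79992856-79993155, plus strand, motif first base at position -219 relative to the start: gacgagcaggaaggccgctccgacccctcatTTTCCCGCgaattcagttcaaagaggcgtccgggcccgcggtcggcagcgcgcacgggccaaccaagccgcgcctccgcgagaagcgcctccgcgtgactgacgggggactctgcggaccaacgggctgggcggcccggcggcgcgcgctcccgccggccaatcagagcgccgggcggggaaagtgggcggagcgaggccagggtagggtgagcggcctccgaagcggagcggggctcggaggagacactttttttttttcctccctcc
Smarcd1, chr15:99702037-99702336, plus strand, motif first base at position -131 relative to the start: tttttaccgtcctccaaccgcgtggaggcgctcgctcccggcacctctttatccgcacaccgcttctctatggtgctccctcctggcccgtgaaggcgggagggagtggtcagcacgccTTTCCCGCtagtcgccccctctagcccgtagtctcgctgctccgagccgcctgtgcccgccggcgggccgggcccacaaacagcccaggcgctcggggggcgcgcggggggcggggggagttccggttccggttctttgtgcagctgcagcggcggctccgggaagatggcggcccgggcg
Arid1a, chr4:133753936-133754235, minus strand, motif first base at position -55 relative to the start: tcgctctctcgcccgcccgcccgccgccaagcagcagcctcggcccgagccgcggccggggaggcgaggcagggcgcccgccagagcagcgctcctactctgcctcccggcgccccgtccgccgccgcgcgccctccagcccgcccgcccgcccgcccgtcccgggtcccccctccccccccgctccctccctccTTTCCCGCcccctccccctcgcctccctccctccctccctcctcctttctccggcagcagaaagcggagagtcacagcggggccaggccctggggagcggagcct
The log2 ratios of these genes lay on both sides of 0. Smarcd1 was at 0.35, Ezh2 at 0.24, Suz12 at 0.08 and Arid1a at -0.40, in the knockout sample over the wild type. Over the 6 measured genes with a motif the median was 0.05, and over the 63 measured genes with a promoter in the table and no motif it was -0.03.

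As a group, the chromatin genes were close to equal in both samples. A probe set was taken as measured when neither sample fell below a floor, set at the design's median signal (736 on MOE430A and 942 on MOE430B). A gene's log2 ratio, knockout over wild type, was the mean over such probe sets after centring each design on its median. By this rule 10171 of the 18193 genes with a probe set of their own were measured. Among the chromatin genes 89 of the 102 were, through 167 probe sets. Their median log2 ratio was -0.008, against -0.001 over all 10171 measured genes, with 44 higher and 45 lower in the knockout sample. Above 0 were thus 49.4% of them, and the background was 49.8% of all measured genes.

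In the knockout sample no chromatin gene was higher by 1.5-fold or more, where 3.51% of all measured genes were. Chd5 alone was at least 1.5-fold lower, where 3.86% were. These shares pool 2 designs that differed in spread. On MOE430B alone 6.46% of all measured genes were 1.5-fold higher and 6.72% lower, against 1.95% and 2.12% on MOE430A alone. Chd5, Kdm2a, Chd2 and Sirt5 were measured on MOE430B only. At 2-fold there was none in either direction, and the shares of all measured genes were 0.531% higher and 0.482% lower. Counts this small over 89 genes are descriptions of these arrays.

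**Figure D1:**
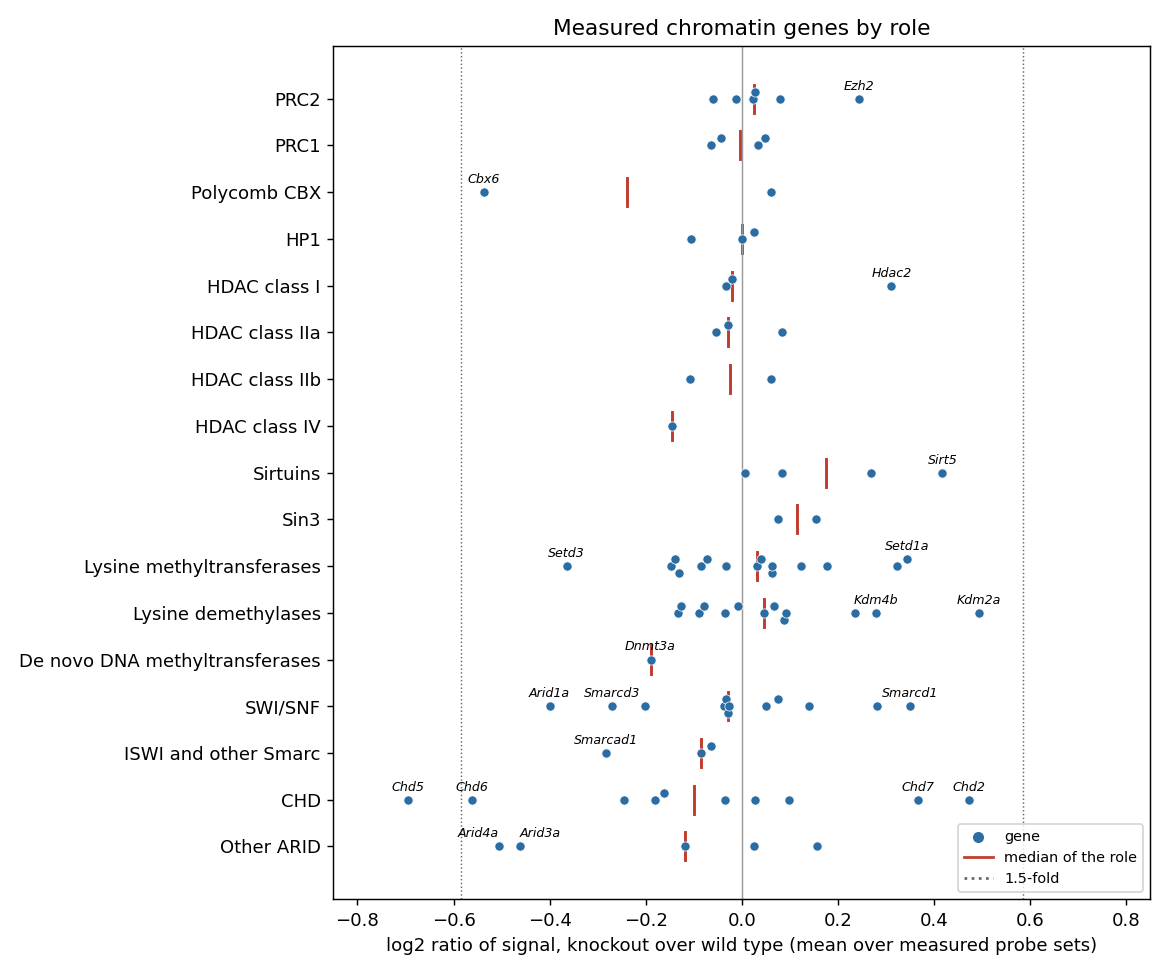
Log2 ratio of MAS5 signal, knockout over wild type (horizontal axis), for the 89 measured chromatin genes, grouped by role (rows); each point is a gene, red bars are medians of the role and dotted lines mark 1.5-fold. Chd5, at -0.69, is the point outside the dotted lines, and the PRC1 genes lie between -0.06 and 0.05.

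The ratios were also small in size. The median absolute log2 ratio was 0.09 among the chromatin genes and 0.18 among all measured genes. Among genes with 1 measured probe set it was 0.08 (41 chromatin genes) and 0.21 (6215 genes), and among genes with 2 or more it was 0.09 (48 chromatin genes) and 0.14 (3956 genes). Over single measured probe sets the medians lay closer. On MOE430A they were 0.13 for the chromatin genes and 0.17 for all, and on MOE430B 0.24 and 0.27. With the brightest probe set of each gene they were 0.13 and 0.20. At least 0.3 in size were 15 of the 89 (16.9%), against 29.2% of all measured genes. With 1 measured probe set the shares were 14.6% of the chromatin genes and 35.8% of all genes. With 2 or more, the shares were nearly equal, at 18.75% of the chromatin genes and 18.68% of all genes. Brightness moved with this. The median signal of measured probe sets was 2843 for the chromatin genes on MOE430A, against 1990 for all, and 3322 on MOE430B, against 2275 for all. Its part in the smaller ratios was not tested.

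**Figure D2:**
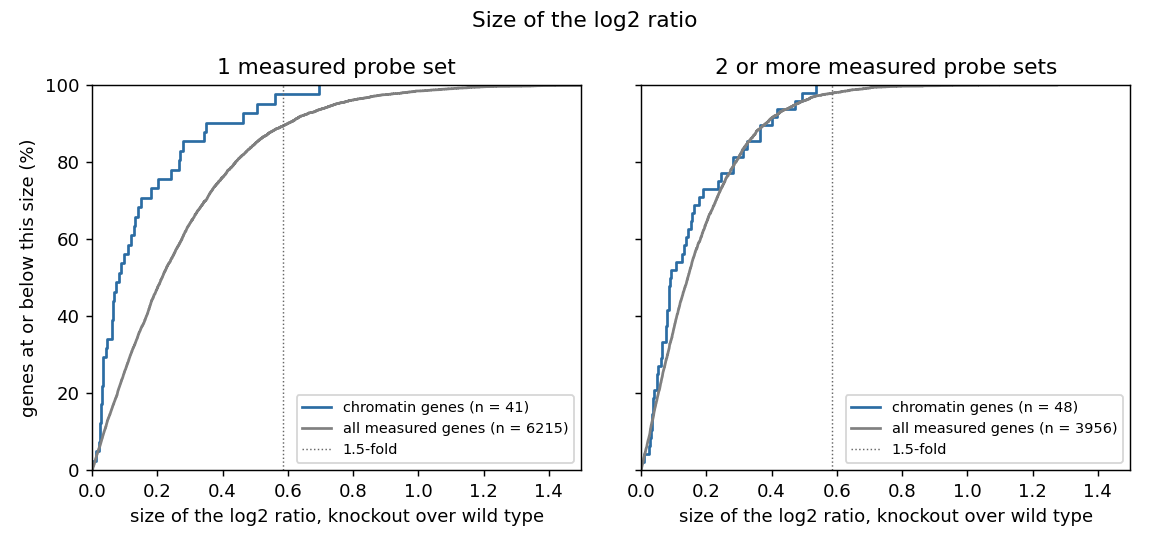
Cumulative share of genes (vertical axis, percent) by the size of their log2 ratio, knockout over wild type (horizontal axis), for chromatin genes (blue) and all measured genes (grey), split by the number of measured probe sets; dotted lines mark 1.5-fold. Among genes with 1 measured probe set the chromatin genes had a median size of 0.08, against 0.21 for all. With 2 or more measured probe sets it was 0.09, against 0.14 for all.

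All 6 PRC2 genes among the 102 were measured. Ezh2, the main methyltransferase of the complex in dividing cells, had a signal of 10221 in the knockout sample and 8656 in the wild type, a log2 ratio of 0.24 and the largest of the complex. Ezh1, the related enzyme of less proliferative cells, had 904 in the knockout sample and 945 in the wild type, just above the floor, at -0.06. Eed, which reads the methyl mark, had 2239 in the knockout sample and 2264 in the wild type. That is a log2 ratio of -0.01, so the samples were almost equal for it. Jarid2, which guides the complex to its targets, was equal within 0.08 on each of 3 probe sets, and Rbbp7, a histone-binding subunit shared with other complexes, was at 0.02 on both of its probe sets.

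Suz12, the scaffold of PRC2, had the widest disagreement between probe sets of all the genes. Its 3 measured probe sets read 2893, 2222 and 2018 in the knockout sample and 2794, 3408 and 1163 in the wild type. Their log2 ratios were 0.05, -0.61 and 0.80, so the mean of 0.08 stands for no shared direction. Which transcripts each of them detects is not stated.

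The PRC1 genes lay between -0.06 and 0.05. Ring1 and Rnf2, its ubiquitin ligases, were at -0.06 and 0.05, and Phc1, of the polyhomeotic family, was at -0.04. Bmi1, a PRC1 subunit needed for self-renewal of neural stem cells, had 2421 and 1059 on its probe sets in the knockout sample and 2086 and 1178 in the wild type. The probe sets pointed in opposite ways, at 0.22 and -0.15, with a mean of 0.03. Bmi1 represses the cell-cycle inhibitor locus Cdkn2a.

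Of the Polycomb chromobox proteins, which read the PRC2 mark for PRC1, 2 of 4 were measured. Cbx6 had 1652 in the knockout sample and 2944 in the wild type on MOE430A, and 6559 in the knockout sample and 7771 in the wild type on MOE430B. It was lower in the knockout sample on both, at -0.83 and -0.24, with a mean of -0.54 or 1.45-fold. Cbx2 was at 0.06, with probe sets at 0.19 and -0.07. Cbx7 and Cbx8 were below the floor in both samples on all their probe sets.

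The HP1 proteins, which bind methylated histone H3 in heterochromatin, were within 0.11 of 0. Cbx5, which codes for HP1 alpha, was at -0.11, and its brightest probe set read 23675 in the knockout sample and 23307 in the wild type. Cbx1 was at 0.00 from probe sets between -0.20 and 0.39. Cbx3 rested on 1 dim probe set with 1008 in the knockout sample and 993 in the wild type. A further 3 measured probe sets carry the symbols of Cbx3 and of its pseudogene Cbx3-ps5 and did not enter its value, and they were at -0.07, 0.23 and 0.09.

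Histone deacetylases were measured for 9 of 11 genes, 3 higher and 6 lower, with a median of -0.03. Hdac2, a class I enzyme that acts with Hdac1 in the Sin3 and NuRD complexes, was the farthest from 0. Its 3 probe sets had 3273, 2590 and 29160 in the knockout sample and 3033, 1760 and 24345 in the wild type. All 3 were higher in the knockout sample, at 0.11, 0.56 and 0.26, and the mean of 0.31 was 1.24-fold. Hdac1 and Hdac3, class I enzymes too, were at -0.02 and -0.03; Hdac1 was named after its value was seen. The scaffolds of the Sin3 complex were at 0.15 for Sin3a and 0.08 for Sin3b, and each had probe sets on both sides of 0.

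The other classes of deacetylase held smaller ratios. Hdac5, of class IIa, gave a direct repeat, because the same probe set is on both array designs. It read 3250 in the knockout sample and 3363 in the wild type on MOE430A, and 9214 in the knockout sample and 7951 in the wild type on MOE430B. The same RNA thus gave -0.05 and 0.21, a difference of 0.26. The SD of that difference was 0.31 over the 99 probe sets that both designs carry and measured. It is the SD of a difference between 2 ratios and not that of 1 ratio. The 2 designs were hybridised on different days. For scale, 15 of the 89 chromatin genes had a mean ratio of 0.3 or more in size. Hdac7 was at -0.05, Hdac10 at 0.06 (-0.76 without a floor) and Hdac11, the class IV enzyme, at -0.15 with probe sets at -0.14 and -0.15. Hdac6, the cytoplasmic tubulin deacetylase, was at -0.11.

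Hdac4, also of class IIa, had a mean of -0.03 that hid opposite probe sets, and it was named after its values were seen. They read 1929, 3975 and 2906 in the knockout sample and 3139, 2730 and 2774 in the wild type. Their log2 ratios were -0.70, 0.54 and 0.07.

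All 4 measured sirtuins, deacylases that need NAD, were above 0, with a median of 0.18. Sirt5, which removes succinyl and malonyl groups mostly in mitochondria, had 2203 and 4851 in the knockout sample and 1592 and 3771 in the wild type. Both probe sets were higher in the knockout sample, at 0.47 and 0.36, a mean of 1.34-fold. Sirt7, a nucleolar deacetylase, was at 0.27 and Sirt6 at 0.08, from 1 probe set each, and Sirt2, named after its value was seen, was at 0.01 and fell below 0 after quantile and lowess normalization. The other 3 sirtuins were not measured. Sirt1 passed the floor only in the wild type, with 531 in the knockout sample and 922 in the wild type, at least 1.25-fold lower. Sirt3 was too, with 488 in the knockout sample and 1083 in the wild type, at least 1.47-fold lower. With these, the sirtuins did not lie on the same side of 0.

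Lysine methyltransferases were measured for 15 of 16 genes, 8 higher and 7 lower, with a median of 0.03. The Kmt2 genes, whose products methylate histone H3 at active promoters and enhancers, lay between -0.09 for Kmt2a and 0.12 for Kmt2c (both named after their values were seen), with Kmt2b at 0.06. Setd1a, of the same activity, had 2380 in the knockout sample and 1880 in the wild type, at 0.34 from 1 probe set, and its value without a floor was -0.10. Setd3, an actin histidine methyltransferase despite its family name, had 4070 and 1523 in the knockout sample and 4924 and 2095 in the wild type. It was lower in the knockout sample on both designs, at -0.27 and -0.46. Kmt5b, which methylates histone H4 and was named after its values were seen, was at 0.32 from probe sets at 0.24, 0.69 and 0.04.

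Lysine demethylases were measured for 13 of 15 genes, 7 higher and 6 lower, with a median of 0.05. Kdm2a, which demethylates histone H3 at CpG islands, was the highest of the 89 genes by the mean over probe sets, at 0.49 or 1.41-fold. By the median over probe sets it was at 0.32, by the brightest at 0.16 and without a floor at 0.12, below Chd2 and Sirt5. Its 4 measured probe sets, all on MOE430B, had 4982, 3044, 3242 and 9772 in the knockout sample and 3972, 2470, 1434 and 8735 in the wild type. All 4 were higher in the knockout sample, from 0.16 to 1.18, and the probe set at 1.18 was the 1 of 167 measured probe sets past 2-fold. Among all measured probe sets of both designs 0.853% were 2-fold higher and 0.783% lower. The median size of the log2 ratio over all measured probe sets was 0.27 on MOE430B and 0.17 on MOE430A. A further Kdm2a probe set went the other way, with 402 in the knockout sample and 1156 in the wild type, only the wild type reaching the floor, and 2 more were below it in both.

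Kdm6b, which removes the PRC2 mark and is active in neuronal differentiation, was at 0.23. Its 3 probe sets had 2376, 23269 and 15598 in the knockout sample and 1928, 21671 and 12714 in the wild type. All were higher in the knockout sample, at 0.30, 0.10 and 0.30. A measured probe set that carries its symbol and that of 1700064E03Rik, and so did not enter, was at -0.37. Kdm4b was at 0.28 from 1 probe set. The H3 demethylases Kdm1a, Kdm5b and Kdm3b were at -0.08, -0.09 and -0.13, and a second Kdm3b probe set passed the floor only in the wild type, with 851 in the knockout sample and 1596 in the wild type, at least 1.70-fold lower; Kdm1a and Kdm5b were named after their values were seen.

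Of the de novo DNA methyltransferases, Dnmt3a was measured on 5 probe sets and Dnmt3b on none. Dnmt3a read 2303, 1676, 1321, 2443 and 2292 in the knockout sample and 2133, 3161, 1644, 2692 and 1872 in the wild type. The log2 ratios ran from -0.91 to 0.30 with a mean of -0.19, and 3 of 5 were lower. The probe sets of Dnmt3b read 594 and 414 in the knockout sample and 732 and 189 in the wild type, all below the floor.

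All 12 SWI/SNF subunits among the 102 genes were measured, 5 higher and 7 lower, with a median of -0.03. The ATPases were near 0, with Smarca4 (Brg1) at 0.08 and Smarca2 (Brm) at 0.05. Smarca4 had 17597 and 8916 in the knockout sample and 19473 and 7285 in the wild type, so its probe sets pointed in opposite ways. The core subunits Smarcb1, Smarcc1 and Smarcc2 were at -0.03, -0.04 and -0.03. Smarcc2, a BAF scaffold tied to cortical size in mice, had 24285 in the knockout sample and 24779 in the wild type.

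At least 0.3 in size were 2 of the 12 SWI/SNF genes, Arid1a and Smarcd1 (16.7%), against 29.2% of all measured genes. That background was 35.8% for genes with 1 measured probe set and 18.7% for those with 2 or more. Arid1a, the DNA-binding subunit of canonical BAF whose promoter is printed above, had 6357 and 9616 in the knockout sample and 8557 and 12497 in the wild type. Both probe sets were lower in the knockout sample, at -0.43 and -0.37, a mean of 1.32-fold. Its paralog Arid1b was at -0.03 from 1 probe set. Arid2, which marks the PBAF form, was at 0.14, with 3 of 4 probe sets above 0 and a range from -0.40 to 0.46; the brightest was the one at -0.40.

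The Smarcd subunits, alternatives of each other in the complex, were on different sides. Smarcd1 had 6373 in the knockout sample and 5010 in the wild type, at 0.35, and its value without a floor was -0.25. Smarcd2 had 1930 in the knockout sample and 2225 in the wild type, at -0.20, and Smarcd3 had 5918 in the knockout sample and 7155 in the wild type, at -0.27. Each value rested on 1 probe set. Smarce1, the subunit with an HMG box, was at 0.28, with probe sets at 0.16 and 0.40.

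The SWI/SNF genes outside the name rule included subunits of the progenitor form and of the neuron form. An exchange between the forms was not tested. Actl6b, the subunit of the neuron form, had 1984 in the knockout sample and 2552 in the wild type, at -0.36 from 1 probe set. Actl6a, its counterpart in progenitors, was at -0.06 from 3 probe sets between -0.56 and 0.36. Dpf1, of the neuron form, was at 0.10, and Phf10, of the progenitor form, at -0.19. Dpf3, of the neuron form, passed the floor only in the wild type, with 270.5 in the knockout sample and 1081 in the wild type. Ss18, of the progenitor form, was at -0.02 from 3 probe sets between -0.38 and 0.31. These genes were picked from the list of other chromatin genes after their values were seen. Neuron markers, with a median of -0.17, were also lower in the knockout sample, and their part in the Actl6b value was not tested. In a bulk sample fewer cells of a type and less RNA per cell cannot be told apart.

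**Figure D3:**
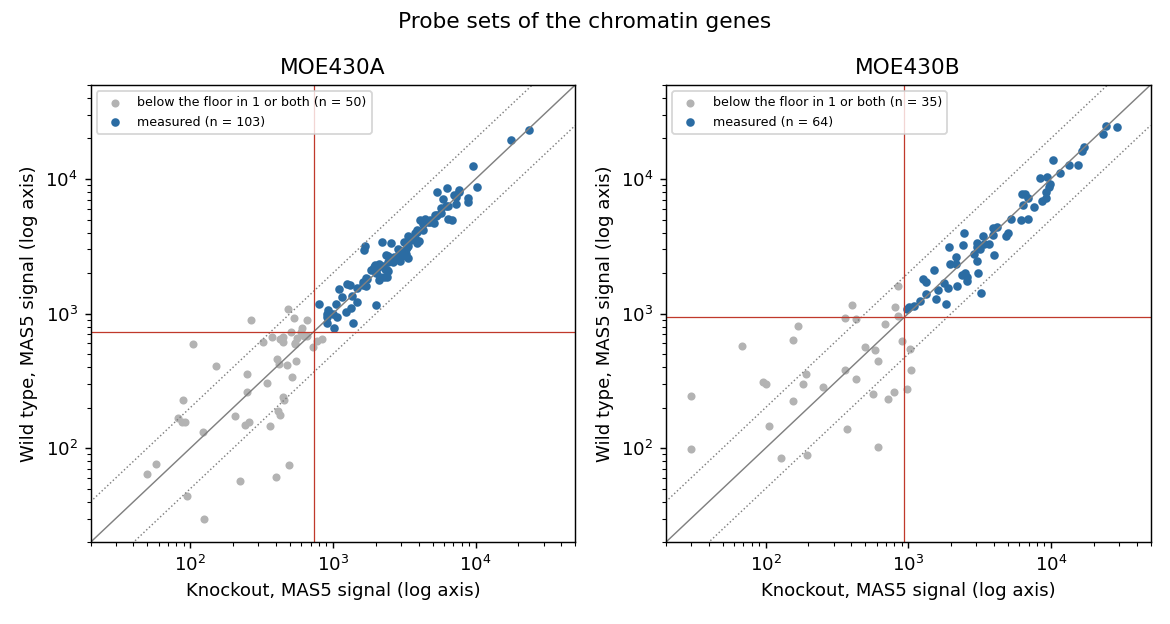
MAS5 signal of the 252 probe sets of the chromatin genes in the knockout sample (horizontal, log axis) and the wild type (vertical, log axis), per array design; blue points were measured, grey points were below the floor (red lines) in 1 or both samples, and dotted lines mark 2-fold. Of the 167 measured probe sets 1, of Kdm2a, lies past the 2-fold lines, and the spread is wider among the grey points.

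CHD remodelers were more widely spread than the 89 genes, and closer in spread to all measured genes. All 10 were measured, 4 higher and 6 lower, with a median of -0.10. Their SD between genes was 0.37, against 0.22 over the 89 genes and 0.32 over all measured genes. Among all measured genes the SD was 0.37 for those with 1 measured probe set and 0.24 for those with 2 or more. Chd5, a remodeler found mainly in neurons, had 2463 in the knockout sample and 3990 in the wild type, at -0.69 or 1.62-fold lower, from 1 probe set. Neuron markers were lower as well, at a median of -0.17, and their part in the Chd5 value was not tested.

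Chd7, which is mutated in CHARGE syndrome and acts in neural stem cells, had 2976 on MOE430A and 6959 on MOE430B in the knockout sample, against 2467 and 5074 in the wild type. Both designs had it higher in the knockout sample, at 0.27 and 0.46. Chd2 had 7604 and 1854 in the knockout sample and 6222 and 1180 in the wild type. It was higher on both probe sets, at 0.29 and 0.65, a mean of 1.39-fold. Chd7 and Chd2 were named after their values were seen.

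Chd6 had 795 in the knockout sample and 1176 in the wild type, at -0.56, and the knockout value was close to the floor. Chd4 and Chd3, the ATPases of the NuRD complex, were at -0.16 and 0.03, and Chd8, an autism gene in humans, was at -0.04; Chd4 and Chd8 were named after their values were seen. Chd3 had 16580 in the knockout sample and 16275 in the wild type.

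The ISWI ATPase Smarca5 was at -0.09, with its 3 measured probe sets between -0.20 and 0.00. Smarcad1, which helps to keep heterochromatin through replication, had 2545 and 3341 in the knockout sample and 3366 and 3757 in the wild type. Both probe sets were lower in the knockout sample, at -0.40 and -0.17. Smarca1, the other ISWI ATPase, was below the floor in both samples.

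Of the remaining ARID proteins 5 of 6 were measured. Arid4a, which binds the retinoblastoma protein and Sin3, had 1278 in the knockout sample and 1815 in the wild type, at -0.51. A second probe set of it passed the floor only in the knockout sample, with 1045 in the knockout sample and 381 in the wild type, so the probe sets disagreed. Arid3a, which was found as a partner of E2F1, had 1104 in the knockout sample and 1525 in the wild type, at -0.46 from 1 probe set. Arid5b was at 0.16, with probe sets from -0.28 to 0.63.

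Agreement between probe sets gave a measure of how far single ratios could be read. Among the 48 chromatin genes with 2 or more measured probe sets, all probe sets pointed the same way in 23 (47.9%), 11 higher and 12 lower, against a background of 42.1% of all such genes. Around the gene means, probe sets had a pooled SD of 0.31 for the chromatin genes and 0.33 for all genes. Of the 48, 9 had a mean of at least 0.3 in size, and all 9 had every measured probe set on the same side, where the background was 77% of 739 genes. These were Kdm2a, Chd2, Sirt5, Chd7, Kmt5b and Hdac2, higher in the knockout sample, and Cbx6, Arid1a and Setd3, lower. A mean far from 0 favours this agreement by its making.

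Of 17 chromatin genes measured on both array designs, 10 had the same sign on each, and the background was 52.4% of 1429 genes. Hdac2, Chd7, Arid5b, Arid2 and Kmt5b were higher in the knockout sample on both, and Cbx6, Setd3, Chd8, Smarcal1 and Smarcc1 lower. The 7 with opposite signs were Kdm7a, at 0.39 on MOE430A and -0.21 on MOE430B, and Hdac5, Kdm2b, Kdm5b, Kmt2c, Kmt2e and Sin3b.

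**Figure D4:**
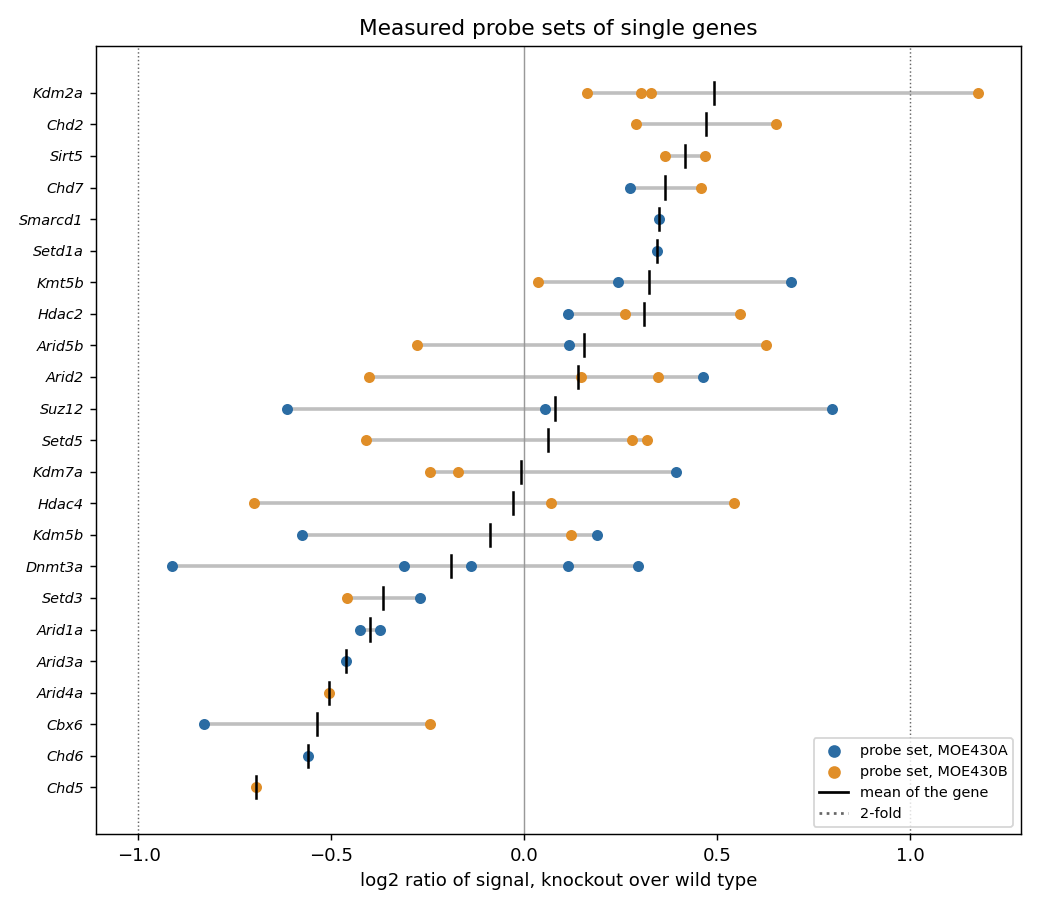
Log2 ratio, knockout over wild type (horizontal axis), of each measured probe set for 23 chromatin genes (rows): the 15 farthest from 0 and the 10 with the widest range between probe sets, 2 of them in both; blue and orange points are probe sets of MOE430A and MOE430B, black bars are gene means, grey lines are ranges and dotted lines mark 2-fold. Suz12 spans from -0.61 to 0.80 around its mean, while the probe sets of Arid1a lie at -0.43 and -0.37.

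The 13 genes that were not measured were Arid3b, Cbx7, Cbx8, Dnmt3b, Hdac8, Hdac9, Kdm4c, Kdm8, Setd4, Sirt1, Sirt3, Sirt4 and Smarca1. Below the floor in both samples were 70 of the 252 probe sets, 5 were above it in the knockout sample alone and 10 in the wild type alone. Of these 15 probe sets, 1 gave a bound of at least 1.5-fold, the Kdm3b probe set described above. The shares of all probe sets above the floor in 1 sample alone were not counted, so no lean is read from the 5 and 10. Ratios of the probe sets below the floor in both samples are given no direction of their own here.

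Chromatin genes on the X chromosome were read beside Xist, the RNA that silences an X chromosome in female cells, which had 1178 in the knockout sample and 8980 in the wild type on its brightest probe set. Hdac6 had 4308 in the knockout sample and 4657 in the wild type, and Rbbp7 had 5704 and 6422 in the knockout sample and 5626 and 6328 in the wild type. Hdac8 and Smarca1, also on the X chromosome, were below the floor. Hdac6 and Rbbp7, the 2 measured X-linked genes of the 89, were at -0.11 and 0.02. Atrx, an X-linked heterochromatin remodeler outside the name rule, was at 0.38 and higher on 4 of 4 measured probe sets, between 0.21 and 0.74.

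Chromatin genes outside the name rule were also close to 0. Of a list of 72 readers, writers and remodelers, 63 were measured, 36 higher (57.1%) and 27 lower, with a median of 0.03 and a median size of 0.11. The background over all measured genes was 49.8% higher and a median size of 0.18. Kat8, a histone H4 acetyltransferase, had 4332 in the knockout sample and 2819 in the wild type, at 0.62, and was the 1 gene of the list past 1.5-fold in either direction. The shares of all measured genes were 3.51% higher and 3.86% lower by 1.5-fold. Tet3, a DNA demethylation enzyme, was at 0.58 and Phc3, a PRC1 subunit, at -0.55, from 1 probe set each; Phc3 was at 1.36 without a floor. Asxl1, of the Polycomb deubiquitinase, was at 0.51 with probe sets from 0.08 to 1.17. The maintenance DNA methyltransferase Dnmt1 was at 0.01 and its partner Uhrf1 at 0.05. All these were named after their values were seen.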

How the data were processed

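Total RNA from 1 knockout and 1 wild-type neurosphere sample was labelled with biotin and run on MOE430A and MOE430B arrays, per the labels' protocols. The deposited values are linear intensities that the authors computed with MAS5, per the submitters' processing notes, which name no version. Signals were taken to log2, and the ratio of knockout over wild type was centred per design (shifts of -0.003 and -0.001). Left out were 64 control probe sets per design and those naming several genes or none. Measured probe sets numbered 10399 of 22690 on MOE430A and 9528 of 22575 on MOE430B. Where only 1 sample reached the floor, the ratio of its signal to the floor is printed as "at least". The platform annotation gave the gene symbols, and all 102 matched RefSeq (GRCm38.p6) by gene identifier. Promoter sequences are RefSeq's.

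The genes and lists were chosen with earlier results of these data known. Named genes were E2f4, members at least 1.5-fold different, with a probe set 2-fold different or with a bound of 1.5-fold, the 2 farthest from 0 and the brightest of each role, and all of PRC2, PRC1, SWI/SNF and Dnmt3a and Dnmt3b. All other chromatin genes in the text were named after their values were seen. The number of arrays limits the precision. Alternatives were other floors, a pseudocount, no centring, quantile and lowess normalization, other summaries of probe sets and each design alone. The software was Python 3.11.15 with pandas 2.3.3, numpy 2.4.6, matplotlib 3.10.9 and, for lowess, statsmodels 0.14.6.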

Additional observations from a re-analysis of the deposited data

How the results depend on the processing

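The median log2 ratio of the chromatin genes stayed between -0.02 and 0.03 under all 12 alternatives, always within 0.044 of the value reported. That limit was set from the SD between probe sets of a gene and the number of measured genes. It holds no variation between RNA samples. The count at least 1.5-fold higher, 0 as reported, was 6 of 102 without a floor, where 16.8% of all genes passed. It was 1 with a pseudocount (Sirt4), with the brightest probe set (Arid5b) and without _x_at, _s_at and _a_at probe sets (Suz12), where 2.12%, 4.41% and 4.22% of all genes passed. The count at least 1.5-fold lower, 1 as reported, was 3 of 96 with a floor at the 30th percentile of signals (Chd5, Sirt1 and Sirt3), 9 of 102 without a floor and 0 with a pseudocount, where 6.99%, 15.7% and 1.97% of all genes passed; on MOE430A alone the gene was Cbx6. The number above 0 was 22 of 41 (53.7%) on MOE430B alone, where fewer genes were measured and 49.7% of all measured genes were above 0. On MOE430A alone it was 30 of 65 (46.2%), against 49.6% of all measured genes. Of 977 values of the 89 genes under the alternatives, 947 moved by less than 0.33, the SD between probe sets of a gene, and 30 by more. For the 41 genes with 1 measured probe set, the brightest probe set and the median repeat the reported value by their making. The sign was kept in every alternative that gave a value for 55 of the 89 genes and turned in at least 1 for 34. Of the 15 genes at least 0.3 in size it was kept for 11, Chd5, Cbx6, Arid1a, Arid3a, Setd3, Sirt5, Kdm2a, Chd2, Chd7, Kmt5b and Hdac2. Chd5 and Arid3a have 1 probe set each on the arrays, so no floor or summary could bring in another. Among these 11, Kdm2a ranged from 0.10 to 0.49 and Kmt5b from 0.02 to 0.47. The other 4 turned without a floor, Chd6 to 1.01, Arid4a to 0.71, Smarcd1 to -0.25 and Setd1a to -0.10. Of the smaller ratios, Arid2 turned to -0.40 and Hdac4 to 0.54 with the brightest probe set, Suz12 to -0.28 with a floor at the 70th percentile, and, without a floor, Hdac10 to -0.76, Chd8 to 0.40, Smarca5 to 0.34, Smarcb1 to 0.32 and Chd1 to 0.32. No paired analysis was possible because there was 1 sample per genotype. Probe sets near or below the floor limit what can be read for Chd6, Ezh1, Arid4a and the genes not measured.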
